A study of Mus musculus with 10 samples.

Results

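The hippocampus of adult wild-type mice is described here from 5 RNA-seq libraries, which are 5 of the 10 libraries of the series. They were chosen by their labels: hippocampus, strain C57BL/6, wild type, aged 3 months, replicates 1 to 5, here called libraries 1 to 5. The remaining 5 libraries come from Tshr-/- mice of the same strain name and enter no comparison. No agent is named for the wild-type animals, and the labels do not say whether a replicate is 1 mouse or a pool, which C57BL/6 substrain was used, or how the hippocampus was cut from its neighbours. The spread between libraries may therefore be partly technical. The values are FPKM, which are fragments divided by gene length and by a size set for each library, so that levels can be set side by side between genes. Where 5 values follow a gene, they belong to libraries 1 to 5 in that order, and "mean ± SD" is over the 5 libraries (n = 5).

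The hippocampus is a folded strip of cortex that the brain needs for forming memories of places and events. Its main excitatory path runs from the granule neurons of the dentate gyrus to the pyramidal neurons of the CA3 field and on to those of CA1, with GABA-releasing interneurons in every layer. Astrocytes, oligodendrocytes, microglia and vessels surround these neurons. Thalamus, choroid plexus, subiculum and neocortex lie against its borders, so the RNA of a dissected hippocampus can hold transcripts of all of them.

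Read numbers rebuilt from the FPKM values came to 23899650 to 33529811 per library. Of the 52636 genes listed, 20993 had no read in any library and 21505 had a read in all 5. A mean of at least 1 FPKM was reached by 13234 genes, 11788 of them protein coding. A mean of at least 100 FPKM was reached by 410 genes, of which 399 code for protein. The Pearson correlation of log2(FPKM + 0.1) across the 13234 genes lay between 0.973 and 0.984 for the 10 pairs of libraries, as a description, since genes are not independent replicates. The Y-linked genes Ddx3y (8.90 ± 0.884 FPKM) and Eif2s3y (10.1 ± 0.870) were read in all 5 libraries, and Xist, the RNA that coats the inactive X chromosome of females, averaged 0.0113 FPKM.

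The most abundant transcripts came from the mitochondrial genome, whose genes encode core subunits of the respiratory chain. The highest of all was mt-Co1, a catalytic subunit of cytochrome c oxidase, at 8145, 9541, 7874, 8312 and 8327 FPKM. Library 2 stood above the other 4 for this gene. Next came mt-Cytb of complex III at 5309.6 ± 479 and mt-Nd1 of complex I at 4678 ± 273. The ranges of mt-Co1 and mt-Cytb did not overlap, nor did those of mt-Nd1 and the next gene, mt-Nd2 (2801 ± 295). The 37 mitochondrial genes together held 11.8% ± 1.02 of the summed FPKM but 3.91% ± 0.374 of the reads. These shares and the order of the mitochondrial genes rest on the values as deposited. Of the 13 coding genes, 5 have nuclear copies of at least 90% of their sequence, described further on, and averaged only 49.02 to 231 FPKM. Whether their reads were undercounted was not tested. FPKM gives short genes more weight than reads do.

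Outside the mitochondrial genome the gene of highest mean level was Selenow, a small selenoprotein, which measured 2132, 1629, 2086, 1789.6 and 1526 FPKM. Fth1, the heavy chain of the iron store ferritin, measured 1642, 1817, 1652, 1726 and 1718 FPKM, a narrower range that lay inside that of Selenow. Nrgn, a postsynaptic protein that binds calmodulin, measured 1525, 1098, 1444, 1338 and 1294 FPKM and was lowest in library 2. Cpe, a carboxypeptidase that trims neuropeptide precursors, averaged 1289 ± 70.5 FPKM, Ncdn (neurochondrin) 1229.7 ± 184, Ddn (dendrin, a protein of dendrites) 1018 ± 174, and the calcium sensor Hpca 1004 ± 163. Apoe, the main lipid carrier released by astrocytes, averaged 946 ± 125.

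Calm3 and Calm2, which encode the same calcium sensor, calmodulin, did not overlap. Calm3 averaged 1248 ± 95.5 FPKM and Calm2 929 ± 43.4. Most neighbours in the order could not be ranked. Among the 20 pairs of neighbours at the top of the nuclear protein-coding genes, the library ranges overlapped in 18, and only Fth1 over Nrgn and Cox6a1 over Rplp1 had separate ranges. Ncdn also lay above Ddn in each of the 5 libraries, although their ranges overlapped. The 10 most abundant genes held 11.7% ± 0.880 of the summed FPKM and between 617 and 655 genes held the upper 50% of it.

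**Figure D1:**
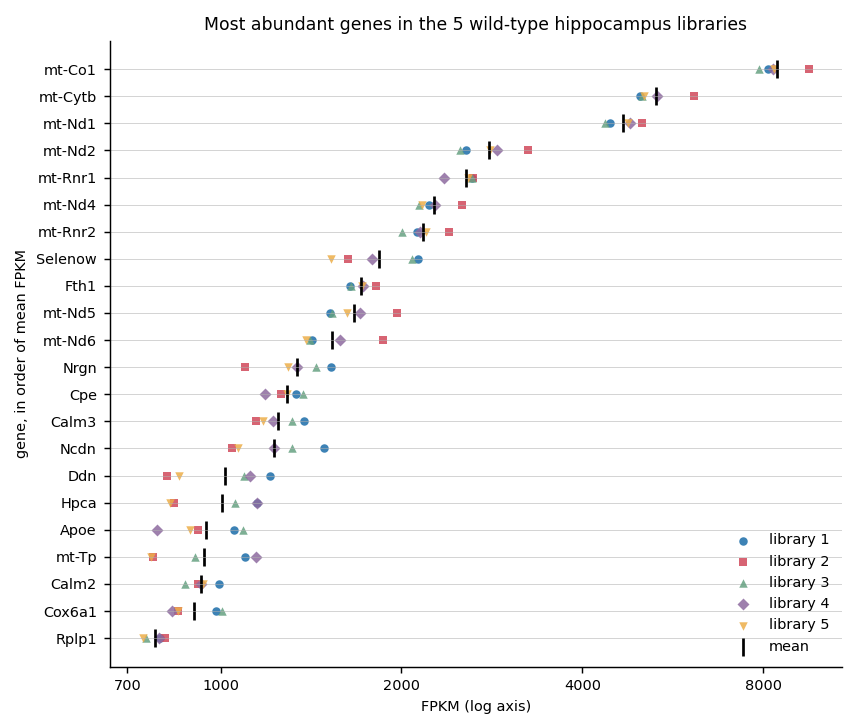
FPKM of the 22 genes of highest mean level (log axis), with 1 symbol per wild-type library and a black bar at the mean of 5. Mitochondrial genes fill the upper 7 rows, mt-Co1 reaches 9541 in library 2, and most neighbouring nuclear genes overlap.

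By gene type, protein-coding genes held 93.9% ± 0.299 of the summed FPKM and 97.8% ± 0.158 of the reads. Processed pseudogenes, which are copies of messenger RNA pasted into the genome, held 1.66% ± 0.0454 of the FPKM, led by Gm10123 at 264 ± 143. The 2 mitochondrial ribosomal RNAs held 1.66% ± 0.0816 and long intergenic RNAs 0.631% ± 0.0653. The most abundant long intergenic RNA, 2900097C17Rik, was also steady, at 265, 262, 263, 252 and 247 FPKM. Genes listed as microRNA precursors held 0.241% ± 0.0460 of the FPKM but 0.00557% of the reads. Their median length was 81 bases, and the 112 of them at 1 FPKM or more rested on a median of 4.60 reads per library. An FPKM of such a short gene is therefore not a measure of its microRNA.

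Markers of each hippocampal neuron class were read in every library. In the dentate list all 14 genes reached 1 FPKM, among them the granule cell factor Prox1 at 16.7, 15.1, 13.6, 15.7 and 13.3 FPKM and the secreted protein C1ql2 at 77.8 ± 16.2. All 10 CA1 genes did so, with Mpped1 at 56.4 ± 5.31, Pou3f1 at 43.9 ± 11.1, Fibcd1 at 43.7 ± 7.95 and Wfs1 at 37.5 ± 7.34. Of the 13 CA3 and CA2 genes 12 did so, with Fam163b at 74.1 ± 10.9, Bok at 53.8 ± 10.5 and Rgs14, a brake on plasticity in CA2, at 35.6 ± 6.73. The vesicular glutamate transporter of cortical neurons, Slc17a7, averaged 396 ± 67.2 FPKM, while Slc17a6, its counterpart in thalamus and brain stem, averaged 6.23 ± 5.16. Among interneuron peptides Sst (357 ± 31.5) and Cck (331 ± 32.5) lay well above Npy (81.4 ± 6.20) and Vip (3.00 ± 0.411). Cck is also made by pyramidal neurons.

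Glial and vascular genes were read in every library too. Astrocytes were represented by Apoe, by Glul, which turns glutamate into glutamine, at 431 ± 19.9 FPKM, and by the glutamate transporter Slc1a2 at 166, 163, 153, 155 and 158 FPKM, values that differed little between libraries. The myelin gene Mbp averaged 324 ± 66.7 FPKM, microglial C1qa 48.8 ± 3.93 and Cx3cr1 9.79 ± 0.698, and the endothelial junction gene Cldn5 46.8 ± 4.88. In tissue of mixed cells a level cannot tell more cells of a type from more RNA in each of them.

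Synaptic receptor genes gave a graded picture. Of the AMPA receptor subunits Gria1 stood first at 207, 179, 195, 206 and 169.5 FPKM, followed by Gria2 at 52.7 ± 4.61, Gria3 at 21.1 ± 1.16 and Gria4 at 8.58 ± 1.70. The libraries of these 4 genes did not overlap. Among NMDA receptor subunits the obligatory Grin1 averaged 55.9 ± 7.05, Grin2b 34.6 ± 3.24 and Grin2a 18.0 ± 2.03. Grik5 led the kainate subunits at 65.8 ± 11.1. Among the GABA-A subunits Gabra5, which is concentrated in hippocampal pyramidal neurons, averaged 65.4 ± 5.03. All 15 ionotropic glutamate and all 12 GABA-A receptor genes listed reached 1 FPKM.

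Most genes of other organs and senses had few or no reads. No read was found in any library for 973 of 1119 olfactory receptor genes, 304 of 327 vomeronasal receptor genes, 29 of 38 taste receptor genes and 53 of 57 keratin-associated protein genes. Ins1, Umod, Lalba, Amy2a5 and Tnp1, which mark pancreas, kidney, mammary gland and testis, also had none. They belong to a list of 15 genes of other organs, of which 12 were below 1 FPKM and Krt10, a keratin, was highest at 6.12 ± 0.977 FPKM. A single olfactory receptor gene, Olfr287 (1.303 ± 0.158), and a single taste receptor gene, Tas1r1 (1.03 ± 0.0796), reached 1 FPKM. A count of 0 allows up to 3 reads per library, which for a gene of 1 kilobase is 0.0892 to 0.131 FPKM. Of the 10 hypothalamus and pituitary genes listed 9 were below 1 FPKM, among them Oxt at 0, 0, 0.0811, 0.0750 and 0 FPKM. The exception, the hormone precursor Pomc, averaged 1.80 ± 0.460 FPKM.

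Spread between libraries was measured by the coefficient of variation (CV), the SD over 5 libraries as a percentage of the mean. Its median over the 13234 genes was 9.09%, with quartiles of 6.16% and 14.0%, where the counting of reads alone would give a median of 3.61%. A CV of 5% or less was found for 2068 genes, 15.6% of those examined, and a CV of 50% or more for 269, which is 2.03%. The CV fell with level: its median was 15.7% at 1 to 2 FPKM, 10.03% at 2 to 5 FPKM and 7.57% to 8.24% in each class above 10 FPKM. For 1012 genes (7.65%) the CV was no larger than the counting part.

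**Figure D2:**
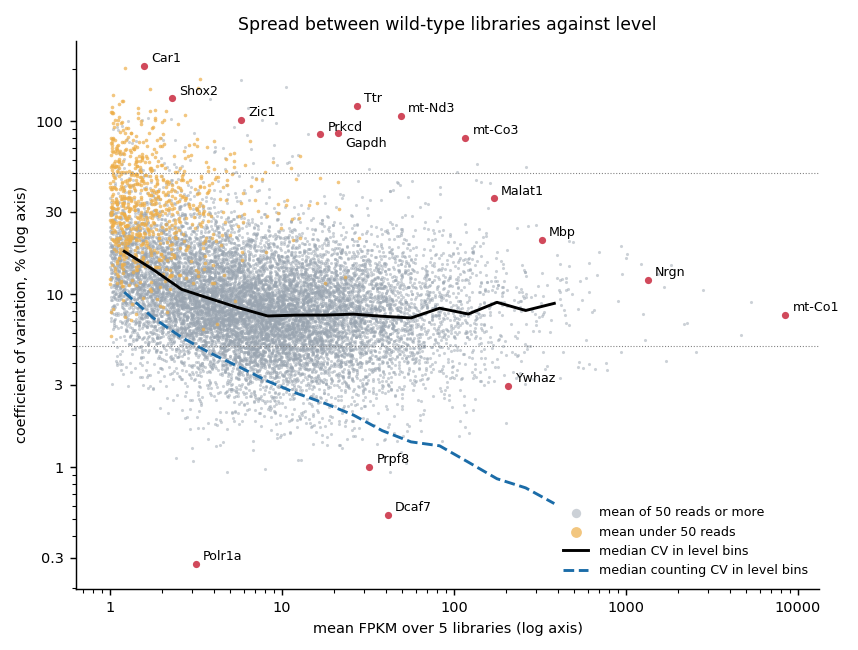
Coefficient of variation over the 5 wild-type libraries against mean FPKM (both log axes) for the 13234 genes at 1 FPKM or more. Orange points had a mean under 50 reads, the black line is the median in level bins of at least 20 genes, the dashed blue line is the part due to counting, and dotted lines mark 5% and 50%. The named genes in red run from Polr1a at 0.278% to Car1 at 209.8%.

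The genes of lowest CV were these. Polr1a, the large subunit of RNA polymerase I, measured 3.15, 3.14, 3.15, 3.15 and 3.17 FPKM, a CV of 0.278% where its reads alone would give 3.16%. Dcaf7, an adaptor of ubiquitin ligases, measured 41.3, 41.6, 41.0, 41.4 and 41.5 FPKM, a CV of 0.530%. Other low values were those of Umps, of pyrimidine synthesis, at 0.937%, the chromatin reader Brd3 at 0.974%, the core splicing factor Prpf8 at 1.01% and Glyr1 at 1.06%. For 40 of the 50 least variable genes the 5 values lay closer than counting error alone would place them on average. Their order is therefore not a measured ranking. Of these 50, between 10 and 21 were still among the 50 least variable when 1 library was left out. On the TPM scale, on which each library has the same sum, 2 were. With the minimum lowered to 0.5 FPKM all 50 stayed.

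Genes often used to normalise PCR spanned a wide range of steadiness. Polr2a (2.36%), Ywhaz (2.96%), Rplp0 (3.27%), Eef1a1 (3.70%) and Hprt (3.71%) had CVs under 4%. Actb (7.51%), Sdha (7.52%), B2m (7.54%) and Tbp (7.60%) lay below the median of all genes. Tubb5 (10.3%) and Tfrc (13.6%) lay above it. Ppia (19.5%) and Gapdh (85.9%) were the least steady of the 18, and both share sequence with pseudogenes that are described further on. Without library 4 the median CV of the 18 was 5.31%, against 7.52% with all 5.

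Promoter sequence was compared between steady and variable genes as a description. The 150 bases before the transcription start show 5 genes: the 2 with the lowest CV, an abundant synaptic gene, an activity-induced gene and a gene of high CV. They are from RefSeq on GRCm38.p6 (the assembly also called mm10), on the strand of the gene, with every CG pair and every TATAAA motif in capitals.
Dcaf7, chr11:106036722-106036871, plus strand: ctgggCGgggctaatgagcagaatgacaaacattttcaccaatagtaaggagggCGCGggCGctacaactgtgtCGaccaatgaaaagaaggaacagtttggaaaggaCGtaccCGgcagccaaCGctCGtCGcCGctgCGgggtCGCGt
Polr1a, chr6:71908903-71909052, plus strand: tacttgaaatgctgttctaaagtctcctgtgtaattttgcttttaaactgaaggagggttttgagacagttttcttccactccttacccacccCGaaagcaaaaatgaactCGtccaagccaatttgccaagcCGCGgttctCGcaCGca
Nrgn, chr9:37552746-37552895, minus strand: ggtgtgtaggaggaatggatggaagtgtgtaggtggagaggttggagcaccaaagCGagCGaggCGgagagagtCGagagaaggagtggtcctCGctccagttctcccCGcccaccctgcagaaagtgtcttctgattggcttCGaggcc
Fos, chr12:85473740-85473889, plus strand: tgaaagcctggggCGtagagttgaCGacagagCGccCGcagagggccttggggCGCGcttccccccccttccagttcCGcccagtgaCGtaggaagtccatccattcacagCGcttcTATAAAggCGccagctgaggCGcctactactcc
Tnnt1, chr7:4515976-4516125, minus strand: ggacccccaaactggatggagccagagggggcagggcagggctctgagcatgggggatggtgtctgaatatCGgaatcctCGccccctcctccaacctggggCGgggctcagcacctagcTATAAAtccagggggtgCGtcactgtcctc
The stretch of Dcaf7 holds 14 CG pairs and that of Polr1a 6, that of Nrgn 7 and that of Tnnt1 4. Fos holds 11, a TATAAA that begins 33 bases before the start, and 2 copies of TGACG or its reverse complement CGTCA, a short form of the element bound by CREB. In Tnnt1 a TATAAA begins 30 bases before the start, and 1 copy of TGACG or CGTCA is present.

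The same features were counted in 300-base windows, from 250 bases before to 50 after the start, for 9092 of the 11364 expressed coding genes sought (80.01%) whose promoter could be matched. The matched genes were ranked by CV and cut into 10 classes of nearly equal size. In the class of lowest CV the median ratio of observed to expected CG pairs was 0.818, and in the class of highest CV it was 0.690, against 0.384 over all 32851 promoters of the table. TATAAA on the strand of the gene, between 50 and 10 bases before the start, was present in 0.769% of the steadiest class, 2.31% of the most variable class and 2.40% of all promoters. TGACG on either strand was present in 38.8%, 24.1% and 20.8%. Over the 9092 matched genes TGACG was present in 32.9%. Of the 19 immediate early genes matched 12 held it, as did 11 of 16 splicing factor genes and 9 of 12 cytosolic ribosomal protein genes. These were the largest shares among the lists counted. Among the lists with small shares, 1 of 13 dentate granule genes, 1 of 9 pan-excitatory genes and 2 of 10 astrocyte genes held it. These letters describe the window and show no binding.

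Most genes of high CV had few reads. Of the 269 genes at 50% or more, 192 had a mean under 50 reads, and 141 of these were shorter than 200 bases. Examples are the mitochondrial transfer RNA mt-Tr, at 0, 0.437, 2.56, 0 and 13.6 FPKM, and Mir128-1, at 0, 0.425, 0.623, 6.33 and 1.15 FPKM, whose means rest on 5.6 and 3 reads. Another 12 genes had at least 50% of their 100-base words in the transcripts of other genes. The remaining 65 had at least 50 reads and were not found to share 50% of their words, and 55 of them code for protein. Genes too short to hold a 100-base word, such as mt-Tn (71 bases, CV 56.9%), have no measure of sharing and are counted here.

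Several well-known genes with shared sequence differed widely between libraries, and only for some of them did a copy differ in the opposite direction. Of the 13 protein-coding genes of the mitochondrial genome, 5 had at least 90% of their words in an unprocessed pseudogene on chromosome 1, and these 5 averaged 49.02 to 231 FPKM with CVs of 24.1% to 108%. The 7 others of at least 300 bases averaged 1533 to 8440 FPKM with CVs of 5.83% to 13.1%. Some of these 7 share sequence too. For mt-Nd4 61.8% of the words were shared, at 2265 ± 154 FPKM and a CV of 6.79%. For mt-Co1, the highest, 34.0% were shared. The exception in length is mt-Atp8, of 204 bases, at 22.5 ± 8.45 FPKM with no shared word. The nuclear copies lie side by side on chromosome 1, as Gm28438 at chr1:24612775-24613119 and Gm28437 at chr1:24613189-24613971 show.

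The complex I subunit mt-Nd3 measured 11.5, 15.2, 11.9, 77.7 and 129 FPKM and its copy Gm28438 127, 137, 119, 126 and 9.31 FPKM. Library 5 was highest for the gene and lowest for the copy, while library 4, next highest for the gene, lay among the other 3 libraries for the copy. Their sum had a CV of 19.3%, against 108% and 51.2% for each alone. The oxidase subunit mt-Co3 measured 67.7, 274, 52.4, 135 and 54.8 FPKM and its copy Gm28437, which holds 100% of its words, 29.8, 46.8, 28.9, 41.8 and 28.0 FPKM, with libraries 2 and 4 highest for both. The CV of this sum was 67.3%, against 80.6% for the gene. Whether read assignment between copies set these differences was not tested.

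Gapdh, the glycolytic enzyme, measured 41.1, 1.73, 4.46, 38.1 and 21.2 FPKM, with libraries 2 and 3 far below the rest. Its mean of 21.3 FPKM compares with 448 ± 30.4 for Aldoa, 336 ± 26.4 for Pkm and 164 ± 8.70 for Pgk1, other steps of glycolysis. Of 14 other genes that each hold at least 10% of its words 13 had reads, and the highest, the processed pseudogene Gm7336, measured 32.5, 24.7, 30.98, 20.5 and 22.03 FPKM. Ppia, a prolyl isomerase, measured 136, 93.7, 121, 111 and 82.7 FPKM, lowest in libraries 2 and 5, where Gm10123, a pseudogene that holds 10.9% of its words, was highest (119, 449, 171, 197 and 382). Their sum had a CV of 33.4%, above the 19.5% of Ppia. Sumo2, a small ubiquitin-like modifier, measured 34.0, 6.65, 6.73, 16.9 and 6.57 FPKM, beneath its pseudogene Gm10241 (119.8, 167, 203, 121 and 155). Over all coding genes with 50 reads or more the median CV was 8.53% in 8064 genes with no shared word, 8.10% in 3341 genes with fewer than 50% shared, 9.87% in 228 genes with 50% to 90% and 16.2% in 29 genes with 90% or more.

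**Figure D3:**
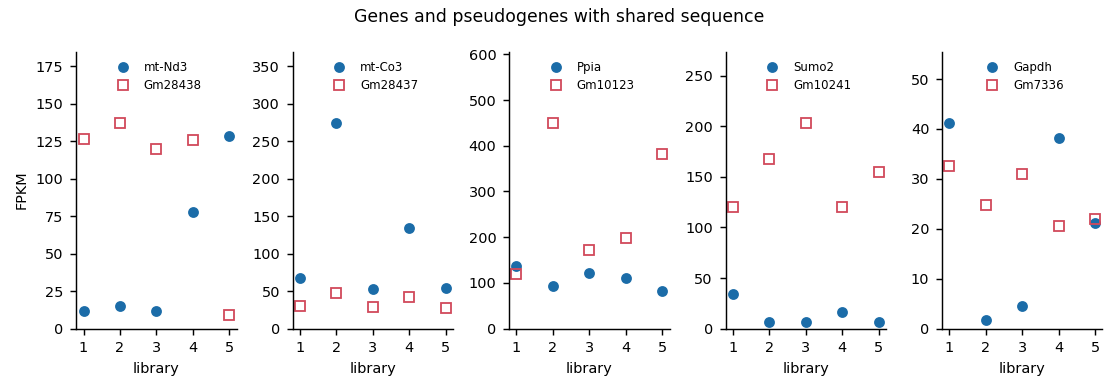
FPKM of 5 genes (filled blue circles) and of a pseudogene that shares part of their sequence (open red squares) in wild-type libraries 1 to 5. In library 5 mt-Nd3 is at 129 and Gm28438 at 9.31, and Sumo2 lies below its pseudogene in every library.

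Most of the other variable genes were high in the same pair of libraries. Of the 65, 39 had their highest values in libraries 2 and 5, the pair that is highest for 17.9% of all 13234 genes (5.69% to 22.03% over the 10 possible pairs). The 65 were picked by level and CV in these same libraries. Genes could thus enter through the pair in which they are high, and the share of all genes is no like baseline. The list of thalamus and habenula markers had reads for all 15 members. Of these 15, 13 had a CV of at least 50% and 12 their highest values in libraries 2 and 5, and their median CV was 67.6%. A mean of 1 FPKM or more was reached by 10 members, but by only 8 without libraries 2 and 5, so some passed through the pair in which they are high. The median CV of those 10 was 90.9% with all libraries and 18.1% without the pair. The list was known from earlier results of these libraries to vary, and is no independent evidence.

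Zic1, a zinc finger transcription factor, measured 1.67, 9.35, 1.88, 1.49 and 14.6 FPKM. Tcf7l2, a nuclear effector of Wnt signalling, measured 0.504, 4.83, 0.733, 0.429 and 4.83 FPKM. For both genes libraries 2 and 5 lay apart from the others with no overlap. Prkcd, a protein kinase C of thalamic relay neurons, measured 6.86, 21.8, 6.57, 9.10 and 39.3 FPKM, and the glutamate transporter Slc17a6 3.40, 9.77, 3.70, 0.896 and 13.4 FPKM, with the same libraries on top. Outside the list, Shox2, a homeobox factor, was at 0, 4.77, 0.145, 0.0487 and 6.46 FPKM and Tnnt1, a slow-muscle troponin, at 0.518, 5.83, 0.257, 0.457 and 11.99 FPKM, near 0 in libraries 1, 3 and 4.

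The summed level of all 15 thalamus and habenula genes was 31.2, 100.1, 34.2, 26.2 and 147 FPKM. Libraries 2 and 5 were lowest in 3 of the 4 lists of hippocampal excitatory neurons. The 10 CA1 genes summed to 293, 222, 295, 274 and 226 FPKM and the 10 pan-excitatory genes to 3321, 2436, 3115, 3034 and 2659.7 FPKM. For the 14 dentate genes the sums were 232, 178, 211, 202 and 178 FPKM, again lowest in this pair. The sum of the 13 CA3 and CA2 genes, which include Pcp4, did not follow. It was 277, 263, 259, 281 and 297 FPKM, highest in library 5 and lowest in library 3. The members were divided: 5 were highest in library 5 and 6 lowest in it. For the 12 at 1 FPKM or more, the median level relative to each gene's mean was 0.974, 0.992, 0.958, 1.06 and 0.954, lowest in library 5. The part of neighbouring tissue in these differences was not tested. Calb2, the calcium-binding protein calretinin, is 1 of these 15 genes and is also known from some hippocampal interneurons. It measured 8.86, 21.6, 9.80, 2.47 and 19.1 FPKM. Pcp4, a calmodulin-binding protein of CA2 neurons, measured 19.4, 47.0, 17.9, 22.1 and 53.9 FPKM, also highest in this pair. Their CVs were 63.6% and 53.2%.

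Ttr, the thyroid hormone carrier made by choroid plexus, measured 0.830, 4.51, 17.4, 30.1 and 84.1 FPKM, a range of 101-fold. Library 5 held the highest value and library 1 the lowest. The choroid plexus markers Folr1 and Kcne2 were low, and again highest in library 5 and lowest in library 1. Folr1 measured 0.0284, 0.233, 0.152, 0.193 and 0.577 FPKM and Kcne2 0, 0.0842, 0.148, 0.205 and 0.386 FPKM. Of all 15 choroid plexus genes 11 were highest in library 5 and 11 lowest in library 1, most at levels of few reads. Among the 13234 genes at 1 FPKM or more, library 5 was highest for 18.5% and library 1 lowest for 12.2%. Kl went the other way, lowest in library 5 at 2.08 and highest in library 4 at 3.50, and Sostdc1 was highest in library 3. In all, 12 of the 15 choroid plexus genes were below 1 FPKM, and the part of choroid tissue was not tested.

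Genes of oligodendrocytes varied together. All 14 myelin genes had a CV above the overall median, with a list median of 23.3%. Of the 14, 13 were highest in library 2 and 13 lowest in library 4, against 19.3% and 28.7% of all genes. Mbp, a structural myelin protein, measured 307, 402, 369.6, 228 and 313 FPKM. The list of oligodendrocyte precursor genes had a median of 11.2%. Astrocyte and microglia lists had medians of 7.31% and 8.41%, below that of all genes. The 13 genes of meninges and fibroblasts summed to 117, 222, 153, 87.3 and 251 FPKM, highest in libraries 2 and 5, and were led by the prostaglandin synthase Ptgds at 93.1, 184, 124, 61.4 and 209 FPKM.

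Immediate early genes, which neurons switch on within minutes of activity, were spread more widely than most. Of 26 genes, all at 1 FPKM or more, 22 had a CV above the overall median, and the list median was 19.2%. Library 3 was highest for 16 of the 26, while library 2 was lowest for 13 and library 4 for 12. Over all genes these shares were 19.0%, 23.0% and 28.7%. Arc, which trims AMPA receptors from synapses, measured 63.4, 52.5, 93.8, 39.0 and 66.8 FPKM. Egr1 measured 41.4, 27.8, 45.2, 32.9 and 41.9 FPKM, Fos 4.91, 6.55, 6.82, 3.44 and 7.67 FPKM and Nr4a1 45.3, 40.5, 65.1, 34.0 and 46.7 FPKM. Fos did not follow the order of Arc: it was highest in library 5. Bdnf (7.69%) and Nr4a3 (7.50%) were among the 4 of the list with a CV below the overall median. Times of day, handling and the interval before freezing are not given in the labels.

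Library 4 stood apart for long noncoding RNAs. Malat1, a long noncoding RNA of nuclear speckles, measured 145, 147, 163, 277 and 121 FPKM, Meg3 50.3, 50.3, 63.3, 106 and 69.9, Snhg11 52.5, 57.2, 60.8, 110.5 and 72.8 and Miat 28.8, 21.6, 33.8, 51.5 and 27.6. Of the 14 long noncoding RNAs at 1 FPKM or more, 10 were highest in library 4, which is highest for 20.4% of all genes, and the list median CV was 17.2% with all libraries and 11.5% without library 4. Library 4 was the lowest library for 28.7% of all 13234 genes. It was lowest for 14 of 18 tubulin and axon genes, whose median level relative to each gene's mean was 1.004, 1.04, 1.05, 0.869 and 1.004. Their median CV was 8.98% with library 4 and 5.91% without it. It was also lowest for 16 of 20 nuclear genes of the respiratory chain, whose median CV was 6.90% with library 4 and 4.19% without it. Among 10242 well-read genes, 109 were at least 1.3 times above all other libraries in library 4, and 159 at least 1.3 times below. Most of the 109 code for protein and 28 do not, while 3 of the 159 do not. The noncoding share of the 10242 was not counted. In the wider set of 13234 genes at 1 FPKM or more, 11788 code for protein. In the other libraries the counts above and below were 9 to 52 and 12 to 34, of which 0 to 1 and 3 to 5 do not code for protein. The 1.3-fold rule was chosen after the values were seen.

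**Figure D4:**
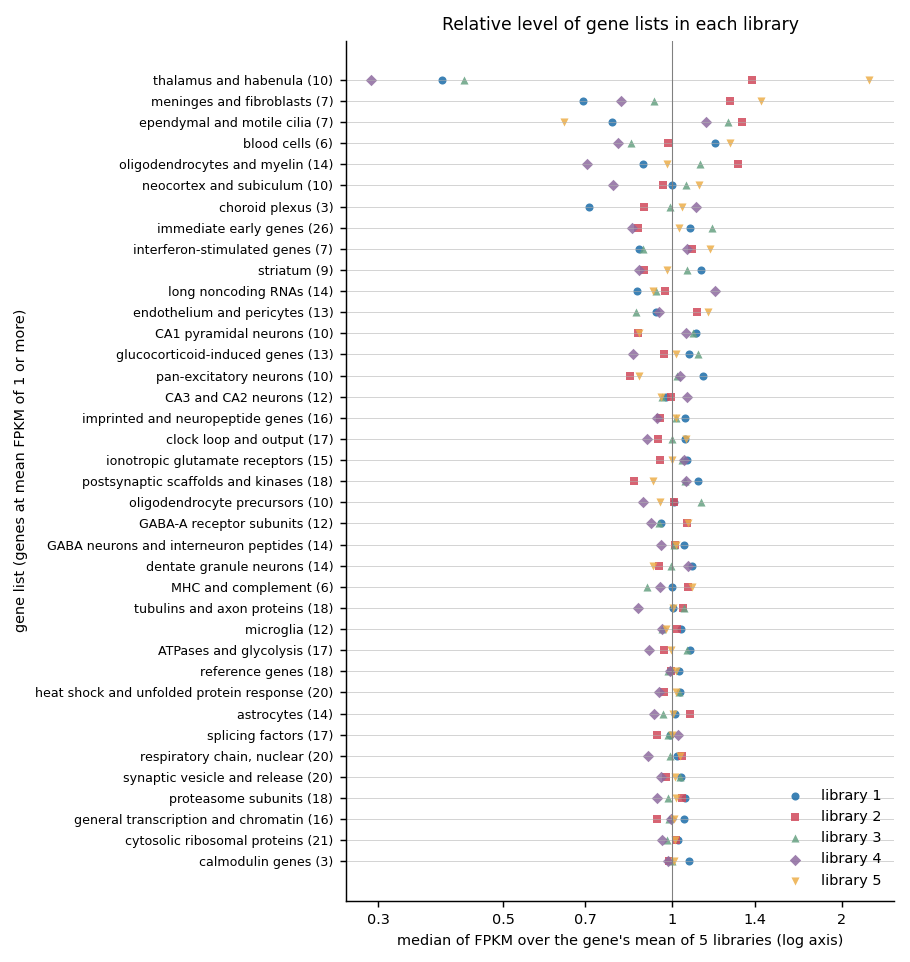
Median level of the genes of each list, relative to each gene's own mean over the 5 wild-type libraries (log axis), ordered by median CV; the number of genes at 1 FPKM or more is in brackets. The 10 thalamus and habenula genes spread from 0.291 in library 4 to 2.24 in library 5, and ribosomal protein genes lie close to 1.

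At the steady end were the machineries of translation and synaptic release. The 21 cytosolic ribosomal protein genes had a median CV of 5.25%, 18 proteasome genes 6.21%, 16 genes of general transcription and chromatin 6.09%, and 20 genes of synaptic vesicles and release 6.42%. Among the last, Vamp2, the vesicle SNARE, measured 202, 197, 195, 204 and 199.8 FPKM, and Nsf, which takes SNARE complexes apart, 132, 132, 126, 128 and 130.3 FPKM. Their CVs were 1.81% and 2.14%, and no library stood apart. The 18 postsynaptic genes had a median of 11.2%, and 13 of them were lowest in library 2, against 23.0% of all genes. Of the 39 lists with 3 or more expressed genes, 26 had a median CV above that of all genes. Without library 4 the medians of the proteasome and vesicle lists were 4.61% and 4.28%.

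Single libraries also held transcripts at levels far above the others. Genes with at least 20 reads in 1 library and a level at least 4 times that of every other library numbered 26 in library 1, 10 in library 2, 2 in library 3, 2 in library 4 and 1 in library 5. In library 1 they include Car1, a carbonic anhydrase, at 7.48, 0.0715, 0, 0 and 0.322 FPKM, Krt8 at 2.64, 0.280, 0.0483, 0.0670 and 0.356 FPKM, and Dmbt1, Pigr and Muc2, which are known from gut lining. In library 2 they include the transcription factors Tfap2b (0.0258, 0.483, 0.0138, 0.0572 and 0.0317), Pax7 (0, 0.264, 0, 0 and 0.00685) and Pax3, and the hormone precursor Trh (0.142, 1.91, 0.0945, 0.233 and 0.348). Of the genes named here only Car1 averaged above 1 FPKM. These genes and the rule were chosen after their values were seen.

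**Figure D5:**
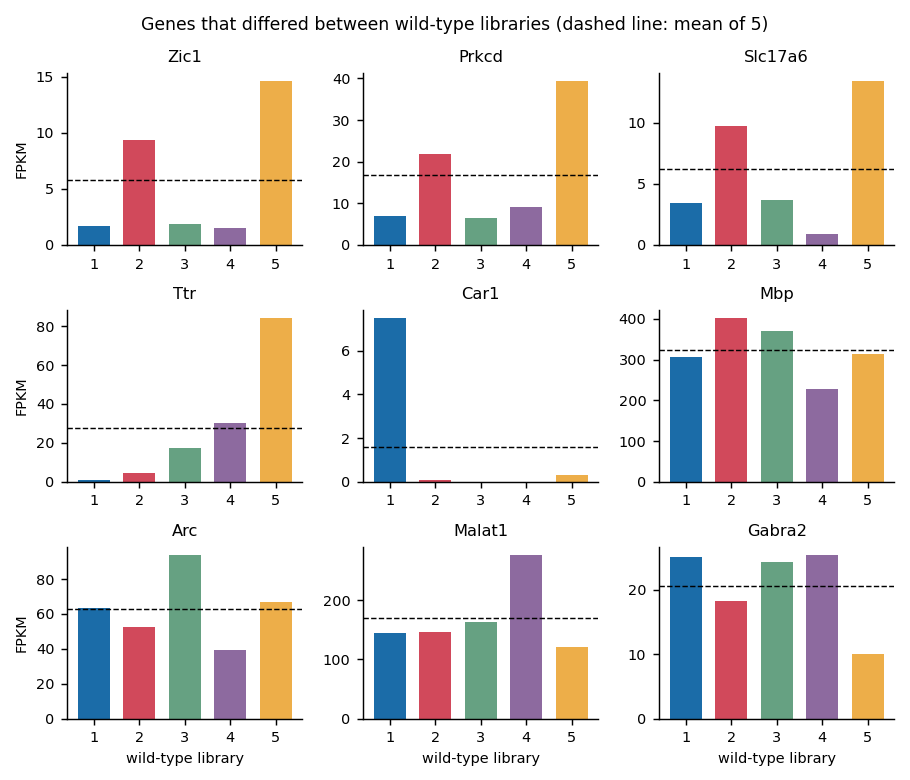
FPKM of 9 genes in wild-type libraries 1 to 5 (bars, linear axes from 0; dashed line: mean of 5). Zic1, Prkcd and Slc17a6 are highest in libraries 2 and 5, Ttr and Gabra2 reach their extremes in library 5, Car1 is above 1 FPKM in library 1 alone, Mbp and Arc are lowest and Malat1 is highest in library 4.

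Spread also differed by base composition. Coding genes of at least 300 bases were split into 5 classes of equal size by the GC content of their longest transcript. The class richest in GC had a median CV of 11.4%, the other 4 classes 7.32% to 8.56%. The median relative level of that class was 1.07, 0.922, 1.09, 0.952 and 0.952 in libraries 1 to 5. In the class poorest in GC it was 0.976, 1.04, 0.946, 0.993 and 1.03. Libraries 1 and 3 were above their means for the GC-rich class and libraries 2, 4 and 5 below, and 22.03% of all genes had libraries 1 and 3 as their highest pair. The part of GC content in the differences between gene lists was not tested.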

How the data were processed

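RNA of flash-frozen hippocampus was extracted with Trizol and made into libraries with a NEBNext Ultra kit, per the labels' protocols. That kit does not mark strand, so antisense and overlapping genes may share reads. HISAT2 2.0.5, featureCounts 1.5.0-p3 and the build mm10 are named in the submitters' processing notes, which list no annotation release. The deposited values are FPKM per gene, made by the authors. Multiplied by gene length, they were whole multiples of 1 step per library (100% within 0.01 read), which gave the read numbers. The library size implied by this step was 0.946 to 1.003 times the read number, with 0.946 in library 1 and 0.960 in library 3. Summed FPKM was 278508 to 296990 per library, and scaling factors from the median gene were 0.998 to 1.005. The values may thus have been rescaled between libraries before deposit, and how the size was set is not recorded. The labels do not record how reads that match several places were treated.

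Spread was the coefficient of variation of FPKM at a mean of 1 FPKM or more. No test was made, since only wild-type libraries were compared. Its counting part came from the read numbers, and the scripts were tested on simulated data. Shared sequence was the share of a gene's 100-base words (1 in 4 sampled) found in transcripts of other genes, from GENCODE release M21. Promoters came from RefSeq on GRCm38.p6. Named genes were the most abundant, the least and most variable, the leading genes of each list and the reference genes, with others named for their role or pattern after values were seen. Members and lists were chosen with earlier results of these data known. Alternatives changed the scale, the filter on low values, the measure of spread and the libraries used. Python 3.11.15, numpy 2.4.6, pandas 2.3.3 and matplotlib 3.10.9 were used. Some genes that the rule names are not reported here.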

Additional observations from a re-analysis of the deposited data

Results flagged for a closer look

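In 28 of 188 values examined, the highest or lowest of the 5 libraries was separated from the rest by more than 0.71 of the whole range. Chance alone separates about 1 in 20. Many of the genes were named because 1 library stood apart, so the count is no measure of how often that happens. Values are FPKM unless named otherwise, with the range of the other 4 libraries in brackets.

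Library 1 lay above the other 4 for Car1 at 7.48 (0 to 0.322), Lypd8 at 5.69 (0 to 0.281), Gm3375 at 40.7 (2.69 to 3.50) and Dmbt1 at 0.846 (0 to 0.0285). It also lay above them for Krt8 at 2.64 (0.0483 to 0.356), Muc2 at 0.133 (0.00835 to 0.0226) and Pigr at 0.811 (0 to 0.110). Library 1 lay below the other 4 for Sostdc1 at 1.25 (1.83 to 1.93). Library 2 lay above the other 4 for mt-Co1 at 9541 (7874 to 8327), Pax7 at 0.264 (0 to 0.00685), Tfap2b at 0.483 (0.0138 to 0.0572) and Gad1 at 41.7 (36.00 to 36.98). It also lay above them for Pax3 at 0.115 (0) and Trh at 1.91 (0.0945 to 0.348). Library 2 lay below the other 4 for Bdnf at 7.29 (8.48 to 8.87). Library 3 lay below the other 4 for B2m at 64.8 (74.97 to 78.7). Library 4 lay above the other 4 for Malat1 at 277 (121 to 163), Stbd1 at 3.56 (0.579 to 0.804), Col11a1 at 2.88 (0.609 to 0.817) and Mir128-1 at 6.33 (0 to 1.15). Library 4 lay below the other 4 for mt-Rnr1 at 2355 (2582 to 2632) and the median relative level of the tubulin and axon list at 0.869 (1.004 to 1.05). Library 5 lay above the other 4 for Atf4 at 69.8 (40.2 to 48.7), Bok at 71.6 (43.9 to 51.9) and mt-Tr at 13.6 (0 to 2.56). Library 5 lay below the other 4 for Wdfy1 at 2.07 (4.08 to 4.70), Plvap at 3.33 (6.65 to 7.31) and Gm28438 at 9.31 (119 to 137).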

How the results depend on the processing

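Of 133 alternative values of the main results, 97 stayed within a tolerance and 36 moved beyond it. The tolerance was 1.5 times for counts and shared genes, 1 SD between libraries for shares and 0.597 for the median CV. At 5 FPKM or more there were 7751 genes. The median CV was 11.2% on the TPM scale, 10.1% at 0.5 FPKM or more, 7.75% at 5 or more, 8.49% for coding genes, 31.9% with no filter, 7.87% without libraries 2 and 5 (chosen after seeing the data), and 8.34% to 9.19% leaving out 1 library. Genes with a CV of 50% or more numbered 1290 on the TPM scale, 650 at 0.5 FPKM or more, 39 at 5 or more, 76 among coding genes, 12839 with no filter and 214 to 295 leaving out 1 library. Rescaling to TPM lowers the level that a filter of 1 sets, so more genes of few reads enter. Genes with a CV of 5% or less numbered 3657 without libraries 2 and 5 and 2269 to 2951 leaving out 1 library. By reads, coding genes held 97.8%, mitochondrial genes 3.91% and the 10 most abundant genes 4.06%; coding genes held 95.1% of FPKM among genes of 300 bases or more. Of the 50 least variable genes 2 stayed on the TPM scale, 7 by median absolute deviation, 17 less the counting part and 10 to 21 leaving out 1 library. Of the 50 most variable 3 stayed on the TPM scale, 12 at 0.5 FPKM or more, 8 at 5 or more, 20 among coding genes, 28 and 27 by SD of log2(FPKM + 0.1) and log2(FPKM + 1), 24 by median absolute deviation, 24 at 300 bases or more and 32 to 35 leaving out 1 library. For the other moved values the cause was not tested. No paired analysis was possible because only 1 group was used. Depth limits genes near 1 FPKM and short genes most.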

Other observations

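For a few single genes library 5 lay apart from the other wild-type libraries. Gabra2, a GABA-A receptor subunit, measured 25.1, 18.3, 24.4, 25.4 and 9.98 FPKM, with library 5 lowest and library 2 next. Wdfy1, an endosomal protein, measured 4.08, 4.70, 4.21, 4.22 and 2.07 FPKM, and Plvap, which forms the diaphragms of fenestrated vessels, 7.31, 7.30, 6.97, 6.65 and 3.33 FPKM. For Wdfy1 and Plvap library 5 lay below the other 4 libraries, which were close together. The lists that hold genes like Gabra2 and Plvap did not follow: library 5 had the highest median relative level of the endothelium and pericyte list, 0.934, 1.11, 0.860, 0.947 and 1.16, and of the GABA-A receptor list, 0.953, 1.06, 0.946, 0.917 and 1.07. Atf4, a transcription factor of the integrated stress response, measured 48.0, 48.7, 43.7, 40.2 and 69.8 FPKM and was highest in library 5. The 20 heat shock and unfolded protein response genes as a list did not stand out there, with a median relative level of 1.03, 0.965, 1.03, 0.947 and 1.01. A median over this mixed list does not show whether single targets of Atf4 followed it. Stbd1, a glycogen-binding protein, measured 0.691, 0.7097, 0.804, 3.56 and 0.579 FPKM and the collagen gene Col11a1 0.648, 0.817, 0.609, 2.88 and 0.630 FPKM, both highest in library 4. These genes were singled out after their values were seen.

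Clock genes were read in all libraries. The 17 genes of the clock loop and its output had a median CV of 11.5%, and 9 of them were lowest in library 4, against 28.7% of all genes. Dbp, an output of the clock that swings widely over the day in many tissues, measured 17.4, 13.0, 15.8, 11.98 and 14.2 FPKM, and Per1 16.7, 13.5, 18.0, 12.7 and 17.02 FPKM. Collection times were not used here, and the labels' text names none.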
